A study of Mus musculus with 6 samples.

Results

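The 10 genes described here encode the enzymes and carriers of the urea cycle and of its ammonia supply in the liver: Nags, Cps1, Slc25a15, Otc, Slc25a13, Ass1, Asl, Arg1, Gls2 and Glud1. They were taken by symbol, each matched by its Entrez identifier, from the 22488 genes counted in each liver, and each stood on 1 line of the table. RNA of liver tissue of male, wild-type C57BL/6 mice aged 6 to 8 weeks was sequenced. The LPS livers (n = 3) came from mice injected into the peritoneum with 6 mg/kg of lipopolysaccharide, a bacterial cell wall component that sets off strong inflammation. The Control livers (n = 3) came from mice given 200 µl of HBSS, a balanced salt solution, by the same route, although another label field records no treatment for them. Mice of both groups had been fasted overnight for 16 h, so every value below is that of a fasted liver. The sources used here do not give the interval from injection to sampling.

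The urea cycle turns ammonia, which is toxic to the brain, into urea that the kidney excretes, and the liver is its main site. Ammonia enters in the mitochondrial matrix, where carbamoyl phosphate is made and joined to ornithine. The citrulline formed leaves the mitochondrion and is converted in the cytosol through argininosuccinate and arginine to urea and ornithine, which is carried back. The enzymes are found mainly in periportal hepatocytes, and ammonia that passes them is taken up by glutamine synthetase in pericentral hepatocytes.

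Counted reads per library ran from 11488525 to 15437785 in LPS livers and from 12577993 to 20282004 in Control livers, and each member had at least 271 reads in every library. Over tested genes, Spearman correlations between libraries were 0.982 to 0.989 within a group and 0.835 to 0.844 between groups. Alb, the hepatocyte marker with the most reads, averaged 54470 CPM (read counts scaled to library size) in LPS livers and 79340 CPM in Control livers. Control replicate 1 differed from the other Control libraries in 5 of the 10 members, which is given here before the results. Its CPM over the mean of Control replicates 2 and 3 was 2.33 for Asl, 1.75 for Ass1, 1.57 for Arg1, 1.55 for Cps1 and 1.55 for Gls2, and lay between 0.878 and 1.08 for the other 5. Of 7180 tested genes with a Control mean of at least 10 CPM, 2.09% reached a ratio of 1.5, a limit chosen after the values were seen.

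Of the 10 genes, 7 fell, 1 rose and 2 did not pass the test in LPS livers (adjusted p under 0.05, edgeR quasi-likelihood test, 2-sided, n = 3 per group). Among all 12078 genes tested, 31.0% were lower and 31.3% higher in LPS livers by the same test, 62.3% in all. Cps1, Slc25a13 and Gls2 fell by at least 4-fold, as did 6.31% of tested genes. Otc was the only one of the 7 that fell by under 2-fold, and 18.1% of tested genes fell by at least 2-fold. Arg1 was the gene that rose, and Nags and Asl were those that did not pass. The median log2 fold change of the 10 genes was -1.24, beside 0.0135 for all tested genes. The 8 genes called were also those whose LPS and Control values did not overlap, against a background of 33.4% of tested genes lower without overlap and 34.0% higher without overlap. Each count was the same, 7 lower and 1 higher, in all 12 alternative settings, including those that left out 1 library. In RNA of a mixed tissue, fewer cells of a type and less RNA per cell cannot be told apart.

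**Figure D1:**
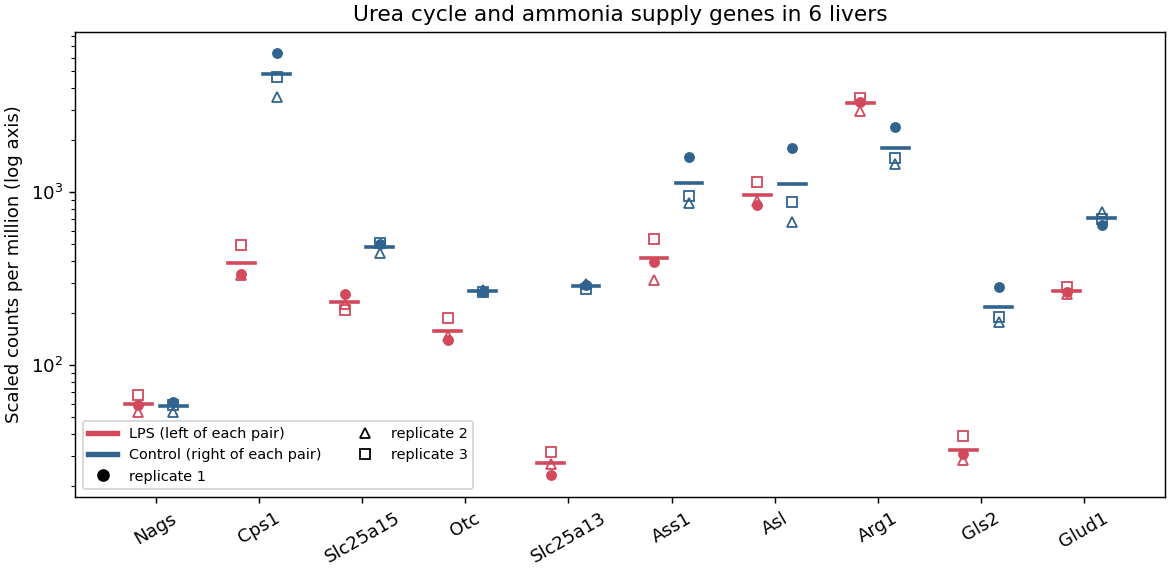
Scaled CPM (log axis) of the 10 genes in each library, with LPS at the left and Control at the right of each pair; symbols are replicates and lines are means. Cps1 lay between 334 and 499 CPM in LPS livers and between 3580 and 6360 CPM in Control livers, while the Nags and Asl groups overlapped.

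Promoter windows of RefSeq (build GRCm38.p6, 250 bases before to 50 after a start site) were held for 6 of the 10 genes, in 7 windows. Those of Cps1, Asl, Arg1 and Gls2 were not used here. The windows of Slc25a13, Otc and Nags are shown because these are genes with a large fall, a small fall and no called change. Capitals mark the 50 bases from the start site of each window onward. That site is the start of the annotated gene for Nags and lies inside the annotated gene for Otc and Slc25a13. The Slc25a13 window is chr6:6217124-6217423 on the minus strand, that of Otc is chrX:10252055-10252354 on the plus strand, and that of Nags is chr11:102145263-102145562 on the plus strand.
Slc25a13: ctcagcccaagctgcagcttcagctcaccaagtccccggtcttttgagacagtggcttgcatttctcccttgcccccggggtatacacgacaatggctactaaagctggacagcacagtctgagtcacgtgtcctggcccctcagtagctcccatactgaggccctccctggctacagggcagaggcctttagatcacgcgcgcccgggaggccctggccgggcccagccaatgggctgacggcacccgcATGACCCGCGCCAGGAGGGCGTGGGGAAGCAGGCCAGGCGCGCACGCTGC
Otc: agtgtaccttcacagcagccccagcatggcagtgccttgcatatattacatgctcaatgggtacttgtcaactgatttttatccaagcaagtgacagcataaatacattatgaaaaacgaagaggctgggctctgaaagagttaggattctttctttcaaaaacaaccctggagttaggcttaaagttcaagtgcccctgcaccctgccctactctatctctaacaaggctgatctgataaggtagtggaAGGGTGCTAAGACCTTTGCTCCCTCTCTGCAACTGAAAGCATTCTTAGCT
Nags: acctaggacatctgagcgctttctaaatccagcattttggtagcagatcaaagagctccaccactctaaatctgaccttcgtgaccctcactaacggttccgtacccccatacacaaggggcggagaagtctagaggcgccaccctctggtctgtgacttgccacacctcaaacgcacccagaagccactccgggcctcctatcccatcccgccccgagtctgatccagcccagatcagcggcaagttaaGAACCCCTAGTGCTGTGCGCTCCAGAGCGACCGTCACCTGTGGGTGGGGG

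The Otc window was the poorest in G and C of the 7, at 44.3%, with 1 CpG. That of Slc25a13 held 65.0% and 17 CpG, and that of Nags 57.7% and 14 CpG. The other 4 windows, of Ass1, Slc25a15 and Glud1, ran from 60.7% to 81.0%, and the median over 32851 mouse promoters was 52.7%. In these 7 windows no match was found on either strand to any of 7 short motifs. These were the C/EBP motif TTGCNNAA (in 10.8% of all promoters), the STAT motif TTCNNNGAA (8.30%), the glucocorticoid receptor motif ACANNNTGT (6.85%), the cAMP response element TGACGTCA (1.79%), the HNF1 motif TTAATNATT (1.47%), the NF-kB motif GGGANTTTC (1.11%) and the HNF4 motif CAAAGTCCA (0.475%). This says only that these letters were not in these windows.

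At the entry of ammonia into the cycle, the gene of the activator did not pass the test while that of the enzyme it activates fell. Nags (chromosome 11, 102145513 to 102149528, plus strand, Entrez 217214) encodes the enzyme that makes N-acetylglutamate, without which carbamoyl phosphate synthetase is inactive. Its values were 58.9, 53.5 and 67.0 CPM in LPS replicates 1, 2 and 3, against 61.0, 53.7 and 58.9 CPM in Control replicates 1, 2 and 3. The groups overlapped, and the means were 59.8 ± 6.79 CPM in LPS livers and 57.9 ± 3.74 CPM in Control livers (SD, n = 3 each). The log2 fold change of Nags was 0.05 (SE 0.13, adjusted p = 0.754, edgeR), and its sign turned with library totals as the scaling and without Control replicate 2 or LPS replicate 3. An antisense gene, Gm11586, overlaps Nags and was not analysed here; the sources used here do not say whether reads were assigned by strand.

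Cps1 (chromosome 1, 67122426 to 67231267, plus strand, Entrez 227231) encodes that synthetase, the rate-controlling step of the cycle and one of the most abundant proteins of liver mitochondria. It had 336, 334 and 499 CPM in LPS livers, against 6360, 3580 and 4640 CPM in Control livers. Every LPS value was below every Control value, and even the highest LPS library lay far under the lowest Control library. The level was 12.5-fold lower in LPS livers (log2 fold change -3.64, SE 0.23, adjusted p = 1.505e-08, edgeR), the largest fall of the 10. Only 1.18% of tested genes fell by more. Without Control replicate 1, where Cps1 was highest, the log2 fold change was -3.40.

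The steps that join carbamoyl phosphate to ornithine fell by less. Slc25a15 (chromosome 8, 22375550 to 22398621, minus strand, Entrez 18408) encodes the carrier that exchanges cytosolic ornithine for mitochondrial citrulline. It had 258, 226 and 208 CPM in LPS livers, against 504, 446 and 508 CPM in Control livers. The groups were well apart, and the level was 2.11-fold lower in LPS livers (log2 fold change -1.07, SE 0.13, adjusted p = 7.629e-06, edgeR). Otc (chromosome X, 10252230 to 10321024, plus strand, Entrez 18416), the ornithine transcarbamylase that forms citrulline, had 141, 147 and 187 CPM in LPS livers, against 264, 274 and 266 CPM in Control livers. Its coefficient of variation in CPM was 15.8% in LPS livers and 2.07% in Control livers. Otc was 1.69-fold lower in LPS livers (log2 fold change -0.76, SE 0.13, adjusted p = 0.000224, edgeR).

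The cytosolic steps went in different directions. Slc25a13 (chromosome 6, 6041218 to 6217304, minus strand, Entrez 50799) encodes citrin, the liver carrier that exports mitochondrial aspartate, the source of the second nitrogen of urea. It had 23.1, 26.9 and 31.6 CPM in LPS livers, against 292, 295 and 275 CPM in Control livers. All Control libraries lay within a narrow band, and every LPS library sat far below it. The level was 10.5-fold lower in LPS livers (log2 fold change -3.40, SE 0.14, adjusted p = 3.745e-10, edgeR), a fall that 1.51% of tested genes exceeded. It is the fall with the smallest adjusted p of the 10.

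Ass1 (chromosome 2, 31470270 to 31520670, plus strand, Entrez 11898), argininosuccinate synthetase, which joins citrulline to that aspartate, had 397, 313 and 538 CPM in LPS livers, against 1600, 868 and 955 CPM in Control livers. The groups did not overlap, and Control replicate 1 stood well above the other Control libraries. Ass1 was 2.74-fold lower in LPS livers (log2 fold change -1.46, SE 0.23, adjusted p = 0.0001029, edgeR), and the log2 fold change was -1.14 without Control replicate 1. Asl (chromosome 5, 130011258 to 130024381, minus strand, Entrez 109900), argininosuccinate lyase, which splits off arginine and fumarate, had 848, 892 and 1150 CPM in LPS livers, against 1800, 674 and 876 CPM in Control livers. The LPS values lay inside the Control range, which was the widest of the 10 (coefficient of variation 53.9%). The log2 fold change of Asl was -0.21 (SE 0.28, adjusted p = 0.521, edgeR), and 0.31 (adjusted p = 0.148) without Control replicate 1.

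Arg1 (chromosome 10, 24915207 to 24927470, minus strand, Entrez 11846), the liver arginase that releases urea and returns ornithine, was the gene that rose. It had 3350, 2960 and 3500 CPM in LPS livers, against 2380, 1450 and 1580 CPM in Control livers. Every LPS library was above every Control library. Arg1 was 1.81-fold higher in LPS livers (log2 fold change 0.86, SE 0.18, adjusted p = 0.0009647, edgeR), and with 1 library left out its log2 fold change ran from 0.70 to 1.10.

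The genes that release ammonia within mitochondria fell. Gls2 (chromosome 10, 128194635 to 128210004, plus strand, Entrez 216456), the liver-type glutaminase that frees ammonia from glutamine in periportal hepatocytes, had 30.6, 28.3 and 38.9 CPM in LPS livers, against 285, 177 and 191 CPM in Control livers. The groups were widely separated, and Gls2 was 6.66-fold lower in LPS livers (log2 fold change -2.74, SE 0.19, adjusted p = 3.581e-08, edgeR). Spryd4 overlaps Gls2 on the other strand and went the other way, at 34.9 ± 5.30 CPM in LPS livers and 21.5 ± 2.30 CPM in Control livers (SD, n = 3 each). As for Nags, it is not known whether reads of the overlap were split by strand. Glud1 (chromosome 14, 34310727 to 34345033, plus strand, Entrez 14661), glutamate dehydrogenase, which interconverts glutamate with ammonia and 2-oxoglutarate, had 266, 257 and 284 CPM in LPS livers, against 648, 771 and 704 CPM in Control livers. It was 2.63-fold lower in LPS livers (log2 fold change -1.40, SE 0.13, adjusted p = 4.815e-07, edgeR), with no overlap between groups.

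**Figure D2:**
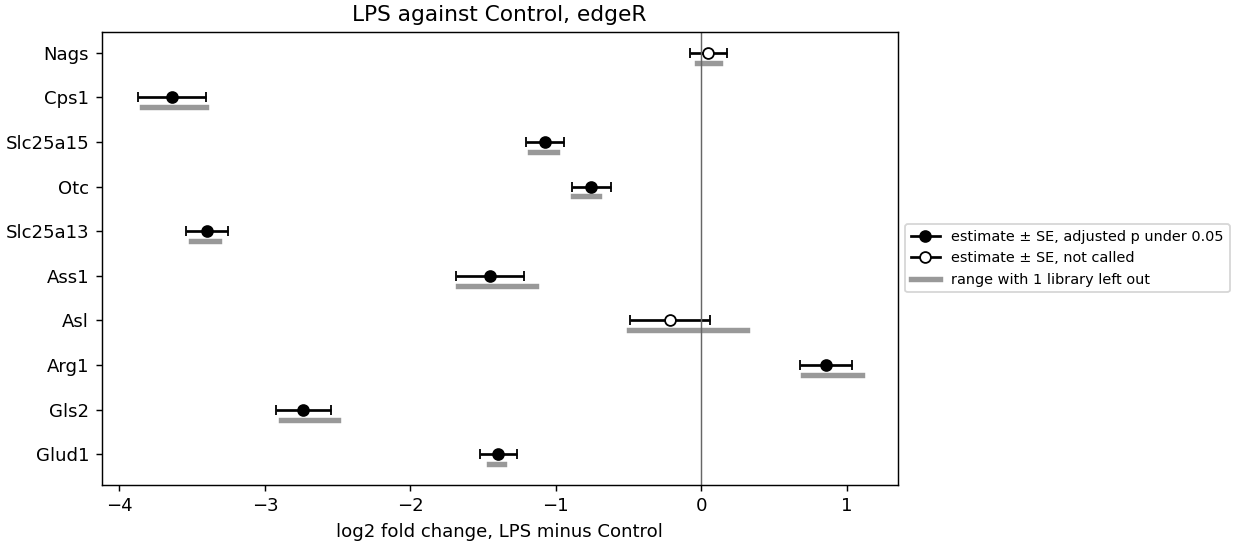
Log2 fold change, LPS minus Control, of the 10 genes in the order of the pathway; points are edgeR estimates with their standard error, and grey bars span the 6 fits with 1 library left out. Cps1 (-3.64), Slc25a13 (-3.40) and Gls2 (-2.74) lie farthest to the left, Arg1 (0.86) lies to the right of 0, and the grey bars of Asl and Nags cross 0.

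The members also differed in how much libraries of 1 group varied. In LPS livers the coefficient of variation in CPM ran from 4.99% for Glud1 to 27.3% for Ass1, beside a median of 11% over tested genes of at least 10 CPM. In Control livers it was 27.1% to 53.9% for Cps1, Ass1, Asl, Arg1 and Gls2, and 2.07% to 8.72% for the other 5, beside a median of 10.3%. In Control livers the 5 genes with the wider spread were those that were high in Control replicate 1. Both describe the same values, and the part of that library in their spread was not tested.

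Levels were compared between genes as TPM, computed here from the counts per kilobase of the longest annotated transcript and scaled to the same sum in each library. In TPM, the order in LPS livers was Arg1 (4584 ± 287), Asl (824 ± 93.9), Ass1 (504 ± 111), Glud1 (164 ± 3.22), Cps1 (144 ± 26.5), Otc (109 ± 10.95), Slc25a15 (108 ± 16.5), Nags (45.6 ± 3.05), Gls2 (26.1 ± 2.97) and Slc25a13 (18.0 ± 1.95) (mean ± SD, n = 3). Glud1 and Cps1 overlapped there, and so did Otc and Slc25a15. The order in Control livers was Arg1 (2721 ± 725), Cps1 (1950 ± 554), Ass1 (1494 ± 503), Asl (1030 ± 541), Glud1 (465 ± 40.5), Slc25a15 (245 ± 23.7), Slc25a13 (205 ± 0.658), Otc (199 ± 6.41), Gls2 (188 ± 48.7) and Nags (47.5 ± 3.95) (mean ± SD, n = 3). There the neighbours from Arg1 down to Asl overlapped across libraries, as did those from Slc25a13 down to Gls2. Within each Control library, however, Arg1 stood above Cps1, Cps1 above Ass1 and Ass1 above Asl. With the longest transcript, Nags stood above Gls2 and Slc25a13 without overlap in LPS livers. With the median transcript length it stood below both, as the lowest of the 10, and it was the lowest in Control livers with either length. With the median length, 6 genes kept their position in LPS livers and 2 in Control livers, so the order depends on the transcript length chosen.

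Summed over Cps1, Otc, Ass1, Asl and Arg1, the level was 6165 ± 406 TPM in LPS livers and 7394 ± 2301 TPM in Control livers (SD, n = 3 each), a difference smaller than the Control spread. Control replicate 1 had the highest sum, 9939 TPM, against 5461 and 6780 TPM in Control replicates 2 and 3. The LPS sums of 6338, 5702 and 6456 TPM lay inside the Control range. The make-up of the sum differed. Arg1 made up 76.6%, 75.1% and 71.4% of it in LPS livers, against 35.6%, 39.2% and 36.7% in Control livers. Cps1 made up 2.04%, 2.26% and 2.71% in LPS livers, against 25.3%, 25.7% and 28.6% in Control livers. Control replicate 1 was close to the other Control libraries in both shares. Ass1 held 8.12% ± 1.33 in LPS livers and 20.1% ± 0.774 in Control livers, Asl 13.4% ± 1.34 and 13.3% ± 2.80 in LPS and Control livers, and Otc 1.77% ± 0.159 and 2.87% ± 0.862 in LPS and Control livers (SD, n = 3 each). These shares are a description and rest on the transcript lengths above.

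**Figure D3:**
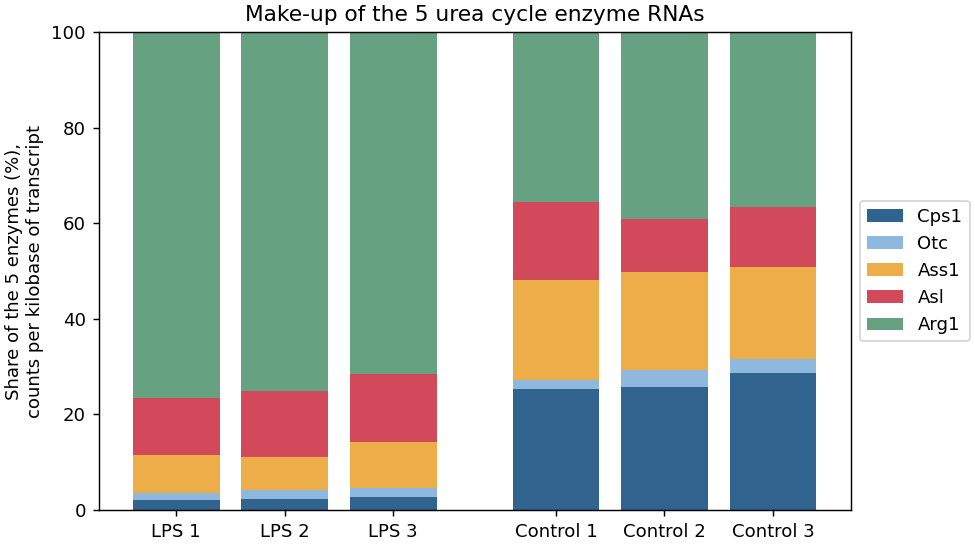
Share (%) of each of 5 urea cycle enzymes in their summed counts per kilobase, by library, with the 3 LPS libraries at the left and the 3 Control libraries at the right. Arg1 fills 71.4% to 76.6% of each LPS bar and 35.6% to 39.2% of each Control bar, while Cps1 fills at most 2.71% of an LPS bar and at least 25.3% of a Control bar.

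Ratios of the raw counts of 2 genes within a library do not depend on how libraries are scaled. They were compared for 9 pairs set by neighbouring or competing steps, with an exact permutation test over the 6 libraries (2-sided). With 3 libraries against 3 this exact permutation test cannot go below p = 0.1, which 7 pairs reached, for an adjusted p of 0.114 over the 8 pairs that gave a ratio. That p is reached only where the groups do not overlap, so for these 7 pairs it says the same as no overlap. The share of other gene pairs without overlap was not computed. Of single tested genes, 33.4% were lower and 34.0% higher without overlap. Nags over Cps1 had log2 ratios of -2.51, -2.64 and -2.90 in LPS livers, against -6.71, -6.06 and -6.30 in Control livers. That is a 12.7-fold higher ratio in LPS livers. Otc over Cps1 was 7.26-fold higher in LPS livers, at -1.28 ± 0.120 in LPS livers and -4.14 ± 0.442 in Control livers (log2, SD, n = 3 each).

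Slc25a13 over Slc25a15, the aspartate carrier against the ornithine carrier, had log2 ratios of -3.48, -3.07 and -2.72 in LPS livers, against -0.789, -0.596 and -0.884 in Control livers. The ratio was 5.04-fold lower in LPS livers, so the carriers fell unequally. Ass1 over Asl was 2.53-fold lower and Gls2 over Glud1 2.50-fold lower in LPS livers. Arg1 over Asl was 1.98-fold higher in LPS livers.

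Gls2 over Glul set the periportal glutaminase against glutamine synthetase, which binds ammonia in pericentral hepatocytes. Its log2 ratios were -4.27, -4.84 and -4.44 in LPS livers, against -0.000395, -1.80 and -1.57 in Control livers. The ratio was 10.5-fold lower in LPS livers, and Control replicate 1 lay above the other Control libraries. Arg1 over Arg2, the mitochondrial arginase, differed by -0.21 on the log2 scale (exact permutation p = 0.7, n = 3 per group) and rests on few Arg2 reads, with 0.505 ± 0.291 CPM of Arg2 in LPS livers and 0.222 ± 0.111 CPM in Control livers (SD, n = 3 each). The ratio of Arg1 over Nos2 was not formed, since 1 Control library had no Nos2 read.

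**Figure D4:**
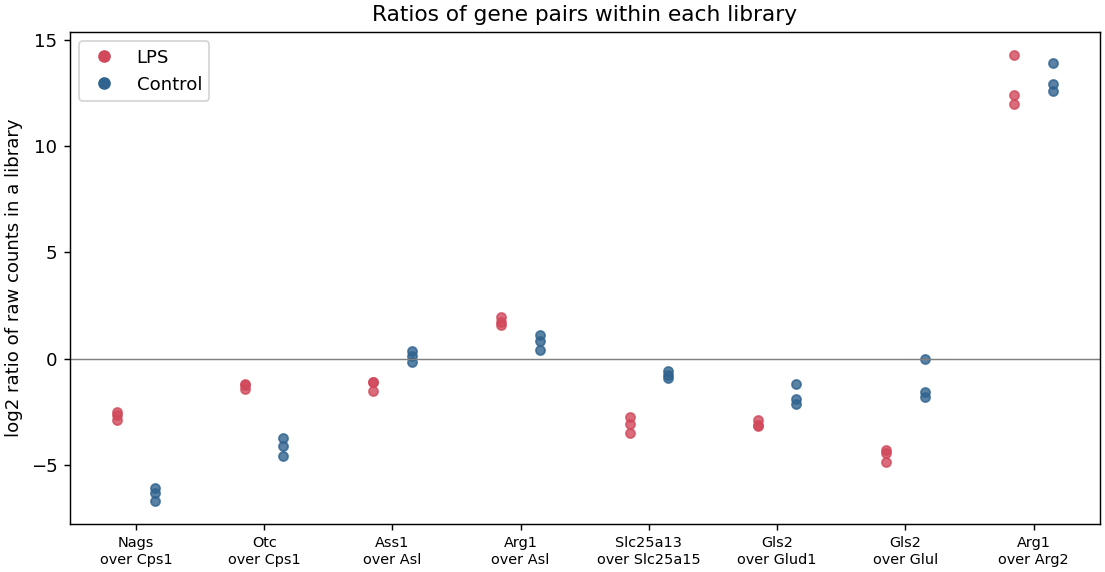
Log2 ratio of raw counts of 8 gene pairs in each library, LPS at the left and Control at the right of each pair. The ratio of Nags over Cps1 lies between -2.90 and -2.51 in LPS livers and between -6.71 and -6.06 in Control livers, and only for Arg1 over Arg2 do the groups overlap.

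Genes around the pathway were described from 5 lists, some of whose genes (Oat, Glul, Slc1a2, Rhbg, Hal and Sds) are also zonal markers below. Their counts stand beside 31.0% of all 12078 tested genes that were lower and 31.3% that were higher in LPS livers. Of 14 tested genes of arginine, ornithine and nitric oxide handling, 7 fell and 6 rose, with a median log2 fold change of -0.60. Oat, which takes ornithine out of the cycle towards glutamate, fell to 454 ± 69.8 CPM in LPS livers, against 1632 ± 354 CPM in Control livers (log2 fold change -1.85, SE 0.18). Ddah1, which degrades inhibitors of nitric oxide synthase, fell by 2.40 and Aldh4a1, which makes glutamate from proline and ornithine carbon, by 1.99 on the log2 scale. Odc1, which uses ornithine, and Nos2, which uses arginine, rose. Odc1, the decarboxylase of polyamine synthesis, had 139 ± 17.3 CPM in LPS livers, against 66.4 ± 10.3 CPM in Control livers (log2 fold change 1.06). Nos2, the inducible nitric oxide synthase, had 4.78, 3.09 and 8.55 CPM in LPS livers, against 0, 0.195 and 0.128 CPM in Control livers (log2 fold change 5.41, SE 0.64, adjusted p = 6.004e-06, edgeR). With so few Control reads, the Nos2 fold change depended on single libraries, at 6.09 without Control replicate 2 and 4.95 without LPS replicate 3 (log2). Slc7a2, the arginine and ornithine transporter of hepatocytes, had a log2 fold change of -0.34 (adjusted p = 0.0336, edgeR), a call lost when either LPS replicate 1 or 2, or either Control replicate 1 or 3, was left out (adjusted p from 0.0508 to 0.0920).

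Of 16 tested genes of glutamine, glutamate and ammonia handling, 7 fell and 5 rose, with a median of -0.17. Slc1a2, a glutamate importer of pericentral hepatocytes, fell to 30.4 ± 3.20 CPM in LPS livers, against 145 ± 14.0 CPM in Control livers. Gpt, the cytosolic alanine aminotransferase, fell by 1.82 and the amino acid transporter Slc38a4 by 0.81 on the log2 scale. Glul had 591, 814 and 841 CPM in LPS livers, against 285, 614 and 566 CPM in Control livers. These groups overlapped, and its log2 fold change of 0.62 (SE 0.23, adjusted p = 0.0340, edgeR) did not pass without Control replicate 1 (0.34, adjusted p = 0.104), without LPS replicate 2 (0.56, adjusted p = 0.0906), without LPS replicate 3 (0.53, adjusted p = 0.0878) or with DESeq2 (0.61, adjusted p = 0.120).

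Of 13 tested genes of amino acid breakdown that release ammonia or pass nitrogen on, 8 fell and 3 rose, with a median of -1.25. Cth, the cystathionine lyase, fell to 25.6 ± 4.63 CPM in LPS livers, against 623 ± 166 CPM in Control livers (log2 fold change -4.60, SE 0.21). Sdsl, a relative of serine dehydratase, rose to 445 ± 17.1 CPM in LPS livers, against 54.8 ± 19.1 CPM in Control livers, and Tat, the tyrosine aminotransferase, rose to 5167 ± 611 CPM in LPS livers, against 1973 ± 304 CPM in Control livers (SD, n = 3 each). Of 12 tested genes that supply bicarbonate and aspartate, 9 fell and 1 rose, with a median of -0.91. Car5a, the mitochondrial carbonic anhydrase that provides bicarbonate to carbamoyl phosphate synthetase, fell to 1.36 ± 0.337 CPM in LPS livers, against 8.30 ± 3.88 CPM in Control livers (log2 fold change -2.60, SE 0.38). Car14, a membrane carbonic anhydrase, fell by 4.23, the oxoglutarate carrier Slc25a11 fell by 1.63, and the pyruvate carboxylase Pcx, which makes oxaloacetate for aspartate, fell by 1.19 on the log2 scale.

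Of 14 tested regulators of urea cycle genes or enzymes, 9 fell and 2 rose, with a median of -1.01. Gcgr, the receptor for glucagon, the hormone that raises ureagenesis, fell to 58.8 ± 8.19 CPM in LPS livers, against 340 ± 41.0 CPM in Control livers (log2 fold change -2.53, SE 0.15). The hepatocyte factors went both ways, since Cebpa fell by 1.46 and Hnf4a by 0.52 while Cebpb rose by 1.10 on the log2 scale. Sirt5, a mitochondrial deacylase that acts on carbamoyl phosphate synthetase, fell by 1.60 on the log2 scale. Creb3l3, a hepatocyte factor activated in fasting and the list's gene with the most reads, had a log2 fold change of -0.10 (adjusted p = 0.551, edgeR).

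**Figure D5:**
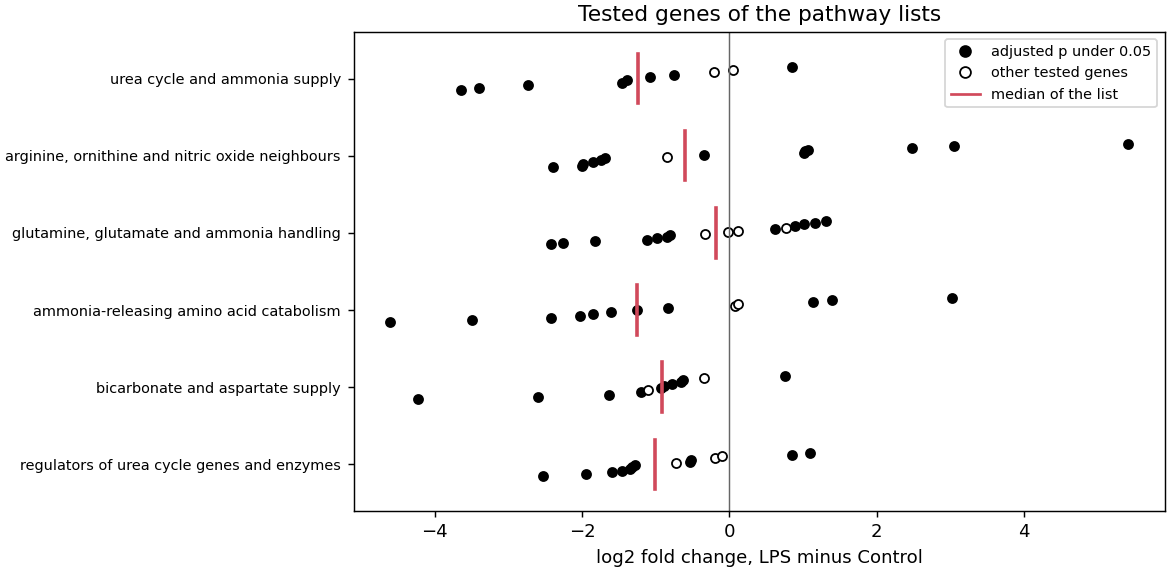
Log2 fold change, LPS minus Control, of each tested gene of the 10 members (top) and of the 5 lists around the pathway; filled points have an adjusted p under 0.05 and red lines are medians. The medians lie between -1.25 and -0.17, and each list holds genes on both sides of 0.

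For Cps1 and Nags, the genes most like them across the 6 libraries were picked. Likeness was measured by the root mean square difference between log2 CPM values centred on the Control mean, over 7428 genes of at least 10 CPM, as a description. Nearest to Cps1 were Mthfd1, a folate enzyme (0.155), Slc10a1, the bile acid importer of hepatocytes (0.169), Apol7a (0.190), Afmid, which acts in tryptophan breakdown (0.199), and Ido2 (0.240). Picking by likeness over both groups favours genes that fell as Cps1 did, so the falls of these 5 follow from the choice. Their log2 fold changes were -3.67 for Mthfd1, -3.48 for Slc10a1, -3.52 for Apol7a, -3.81 for Afmid and -3.54 for Ido2. Nearest to Nags were Ap3s2, Rhod, Aars, Rpl10 and Vps33a (0.0498 to 0.0580). None of them passed the test, which likewise follows from the choice.

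Markers of the cell types in the tissue moved in the same libraries, and their part in the results was not tested. Beside the marker counts, 31.0% of all tested genes were lower and 31.3% higher in LPS livers. Of 9 tested hepatocyte markers, 6 fell and 2 rose, and their summed level was 93600 to 127000 CPM in LPS livers and 114000 to 129000 CPM in Control livers. That sum includes Fgb, which rose to 23530 ± 4301 CPM in LPS livers, against 2791 ± 282 CPM in Control livers (SD, n = 3 each). The overlap of the sums therefore does not show that the other hepatocyte markers kept their level. Periportal markers, led by Pck1, summed to 2010 to 3080 CPM in LPS livers and 5980 to 7290 CPM in Control livers, with 8 of 10 lower and 1 higher. Pericentral markers, led by Cyp2e1, summed to 5220 to 5730 CPM in LPS livers and 10300 to 11500 CPM in Control livers, with 8 of 11 lower and 2 higher. Neutrophil markers, led by S100a9, summed to 213 to 260 CPM in LPS livers and 5.46 to 8.51 CPM in Control livers, and all 9 tested rose. Arg1 is also made by some macrophages in mice. The 10 monocyte and macrophage markers, led by Mrc1, summed to 70.6 to 95.8 CPM in LPS livers and 145 to 163 CPM in Control livers, with 4 lower and 3 higher of 9 tested. Those lower were Mrc1, Csf1r, Lyz2 and Adgre1, and those higher were Chil3, Ly6c2 and Itgam, all named after their values were seen. In LPS livers Mrc1 averaged 16.55 CPM, Csf1r 4.24 CPM, Lyz2 9.76 CPM and Adgre1 2.24 CPM. In Control livers Mrc1 averaged 53.9 CPM, Csf1r 37.8 CPM, Lyz2 41.6 CPM and Adgre1 10.5 CPM (n = 3 each). Chil3 averaged 24.5 ± 7.06 CPM in LPS livers and 0.309 ± 0.179 CPM in Control livers, Ly6c2 8.77 ± 1.41 CPM in LPS livers and 0.363 ± 0.2504 CPM in Control livers, and Itgam 6.82 ± 1.95 CPM in LPS livers and 0.429 ± 0.390 CPM in Control livers (SD, n = 3 each). Kupffer cell markers, led by Clec4f, summed to 54.3 to 88.5 CPM in LPS livers and 217 to 237 CPM in Control livers, with 5 lower and 1 higher of 7 tested.

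Endothelial markers, led by Eng, summed to 267 to 408 CPM in LPS livers and 339 to 372 CPM in Control livers, with 4 lower and 2 higher of 10 tested. Stellate cell markers, led by Dcn, summed to 311 to 348 CPM in LPS livers and 339 to 368 CPM in Control livers, with 6 lower and 1 higher of 10 tested. T and NK cell markers, led by Gzma, summed to 7.77 to 9.72 CPM in LPS livers and 3.89 to 6.86 CPM in Control livers, with 1 higher of 5 tested. Erythroid markers, led by Hbb-bs, summed to 342 to 475 CPM in LPS livers and 296 to 413 CPM in Control livers, with 1 lower and 3 higher of 6 tested. Of the kidney and intestine markers, Slc12a1 and Slc34a1 had no read in any library, and the list summed to 68.4 to 75.9 CPM in LPS livers and 156 to 209 CPM in Control livers, mostly Fabp2, with 1 of 2 tested lower.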

How the data were processed

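Liver RNA of 3 LPS and 3 Control libraries was analysed. Per library, the authors deposited 1 fixed-width table of read counts for 22488 genes, not normalized. The submitters' processing notes name bcl2fastq 2.0, HISAT2, StringTie, DESeq2, limma and mm10. The sources used here do not say which tool counted the reads, nor its annotation, strand setting or handling of reads with several positions. Genes were named by Entrez identifier (20722) from RefSeq GRCm38.p6, otherwise by symbol or as deposited. Positions come from that annotation, and strands, overlaps and transcript lengths from GENCODE M21.

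Counts were tested in R 4.3.3 with edgeR 4.0.16 (TMM scaling, filterByExpr with minimum count 10 and minimum total 15, quasi-likelihood F test, 2-sided), with Benjamini-Hochberg adjustment over 12078 genes and a threshold of 0.05. CPM values are scaled by the TMM factors, and TPM were computed for the 21862 genes with a transcript length. The script was tested on simulated data. Alternatives used DESeq2 1.42.0, limma-voom (limma 3.58.1), other scalings, no filter, a replicate block and each library left out.

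The 10 members, the lists and the pairs were chosen with earlier results of these data known. The named genes were the members, in each pathway list the 2 changed genes with the smallest p and the most abundant one, 11 genes fixed by name (1 of them is not reported here), and the 5 genes most like Cps1 and Nags. Spryd4 was named for its overlap with Gls2. Of the hepatocyte markers Tf was not matched.

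In the sample titles the groups share repeat numbers, without saying that a number marks a shared day. Nothing says that libraries came from separate mice, so p-values measure the spread between these libraries. Within groups libraries differed by more than counting error (chi-square per degree of freedom 11.6 to 31.2).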

Additional observations from a re-analysis of the deposited data

How the results depend on the processing

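The 7 falls and the rise of Arg1 kept direction and call in all 12 alternatives (RLE size factors, library totals, DESeq2, limma-voom, no filter, replicate block and 6 fits with 1 library left out). With 1 library left out, log2 fold changes ran from -3.85 to -3.40 for Cps1, -3.51 to -3.32 for Slc25a13, -2.89 to -2.50 for Gls2 and -1.67 to -1.14 for Ass1. Asl ran from -0.50 to 0.31, and its sign turned without Control replicate 1. Nags ran from -0.0298 to 0.128 with 1 library left out and stood at -0.0236 with library totals. Its sign turned there and without Control replicate 2 (-0.0284) or LPS replicate 3 (-0.0298). The difference in the log2 ratio of Arg1 over Arg2 ran from -0.89 to 0.22 with 1 library left out. The cause was not tested. With the median transcript length, 6 members kept their level position in LPS livers and 2 in Control livers, since the length used changed for every member except Cps1.

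After group means were subtracted, correlations between LPS and Control libraries were -0.000745, 0.104 and 0.0352 where they shared a number and ran from -0.121 to 0.0741 where they did not, so the numbers were not taken to pair the libraries. The fit with the replicate block left 7 members lower and 1 higher, and Asl at -0.09. Genes lower in LPS livers numbered 3510 to 4002 and higher ones 3372 to 3824 over the alternatives. The median log2 fold change of all tested genes moved by less than 0.1 under each scaling, to -0.0546 with library totals. The exact test of ratios cannot pass the threshold at 3 libraries a group, so it says nothing about their stability, and low counts limit Arg2 and Nos2.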
